A study of Homo sapiens with 16 samples.

Results

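The 49 genes described here encode the machinery that licenses DNA replication origins, fires them and copies DNA at the fork. They were taken by gene symbol from a list of names, out of 20166 gene symbols in the deposited table, and all 49 were measured. By role they comprised 5 subunits of the origin recognition complex and 3 genes of licensing control (CDC6, CDT1 and the inhibitor GMNN). Further roles were the 6 MCM helicase subunits and 8 origin firing factors. The remainder were 6 clamp and clamp loader genes, 9 polymerase and primase subunits, FEN1 and LIG1 of Okazaki fragment processing, 3 subunits of the single-stranded DNA binding protein RPA, 5 nucleotide supply enzymes, and the fork protection genes CLSPN and TIPIN.

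RNA was sequenced from RWPE1, an established line of human prostate epithelial cells immortalised with a human papillomavirus. The 16 libraries comprised 4 from cells over-expressing a construct with the T164A mutation (replicates 91 to 94), 6 from cells over-expressing its wild-type form (replicates 13 to 18) and 6 from cells carrying the empty vector (replicates 1 to 6). The vector was an altered pTRIPZ, and cells were snap frozen before RNA extraction, per the labels. The comparisons ask how the replication genes differ in cells with either construct from vector cells, and between the constructs.

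Replication is prepared before S phase, when the origin recognition complex, CDC6 and CDT1 load rings of the MCM helicase onto DNA, a step called licensing that geminin (GMNN) blocks later in the cycle. In S phase the kinase CDC7 with its activator DBF4 marks the loaded rings, and CDC45 and the GINS complex join them to form the active helicase. Polymerase alpha with primase starts each strand, and polymerases epsilon and delta extend them together with the clamp PCNA. Many of these genes are transcribed at the boundary of G1 and S under E2F factors.

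The values are log2 normalised expression values as deposited, given below without a unit, and a difference of 1 is a doubling. Levels are not set side by side between genes, since the values are not per length. The estimated depth was 12300000 to 19200000 reads per library, and group mean values of the 49 genes lay far above the level that corresponds to 3 reads, 2.30. Differences were tested with limma across all symbols, and a gene is called higher or lower at a Benjamini-Hochberg adjusted p below 0.05. Nothing in the labels says that the libraries of a group came from different cultures. The p-values therefore measure the spread between libraries alone, and that spread may be technical. In bulk RNA of this kind, fewer cells of a type and less RNA per cell cannot be told apart.

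Some libraries stood apart from their groups. Over 547 genes, T164A replicate 93 lay at a chi-square per degree of freedom of 92.4 to 104 from the other T164A libraries, among which no pair exceeded 15.3. Wild-type replicate 14 lay at 91 to 152 from the other wild-type libraries, among which no pair exceeded 37.3. The vector libraries formed a close pair (replicates 1 and 2, at 4.34) and a close set of 3 (replicates 3, 4 and 6, at 7.5 to 24), with the remaining vector pairs at 39.4 to 68.7. Of the defining basal markers of this line, KRT5 averaged 15.46 in T164A, 16.52 in wild-type and 17.05 in vector libraries, and TP63 averaged 11.16 in T164A, 11.82 in wild-type and 12.45 in vector libraries. The summed linear level of 12 luminal prostate markers was 1530 to 1622 in T164A, 53246 to 110636 in wild-type and 430 to 514 in vector libraries, with KLK2, KLK3, HPN, TRPM8 and PCA3 below the 3-read level in every T164A library and HPN, TRPM8 and PCA3 in every vector library. The sum of 12 basal markers was 137503 to 156518 in T164A, 163159 to 227052 in wild-type and 265131 to 310822 in vector libraries. The sum of 12 squamous markers was 863 to 941 in T164A, 45324 to 63477 in wild-type and 77772 to 84276 in vector libraries, with LOR below the 3-read level in every T164A library. The 10 fibroblast markers summed to 16427 to 18610 in T164A, 5003 to 6004 in wild-type and 4975 to 6296 in vector libraries, and the 10 neuroendocrine markers to 3357 to 3928 in T164A, 855 to 1012 in wild-type and 753 to 937 in vector libraries. Of 10 endothelial and leukocyte markers, 9 were measured and summed to 92 to 122 in T164A, 267 to 320 in wild-type and 323 to 435 in vector libraries, with CDH5 and CD3E below the 3-read level in every library. The higher fibroblast sum of T164A libraries came mostly from FN1, which averaged 13.51 in T164A, 11.98 in wild-type and 11.68 in vector libraries, and from VIM, which averaged 12.33 in T164A, 7.44 in wild-type and 7.54 in vector libraries. COL1A1 of the same list was lower in T164A, at 9.24 in T164A, 10.23 in wild-type and 10.85 in vector libraries. Below the 3-read level were COL1A2 in every T164A library, COL1A2, PDGFRA and LUM in every wild-type library, and COL3A1, PDGFRA, PDGFRB, DCN and LUM in every vector library. These marker levels moved with the groups that are compared below, and their part in the replication gene results was not tested.

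Promoter sequence is given for 6 genes, so that the stretch in front of each can be read beside its expression values. They are those with the smallest p-values between T164A and vector cells among the leading 3 genes of each role, which leaves out GINS2, and among genes whose promoter sequence could be shown here. Each is the 250 bases before the first listed transcription start in RefSeq (build GRCh38.p14), 5′ to 3′ on the gene's strand. Capitals mark an E2F motif (TTTCCCGC, TTTCGCGC, TTTGCCGC or TTTGGCGC) or a CCAAT box, on either strand.
CDC45, chr22:19479670-19479919, plus strand: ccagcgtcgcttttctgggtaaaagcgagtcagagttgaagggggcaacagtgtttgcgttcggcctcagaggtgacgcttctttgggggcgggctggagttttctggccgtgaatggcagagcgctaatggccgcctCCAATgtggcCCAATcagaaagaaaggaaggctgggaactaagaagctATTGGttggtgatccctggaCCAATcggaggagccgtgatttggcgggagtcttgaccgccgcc
MCM10, chr10:13161308-13161557, plus strand: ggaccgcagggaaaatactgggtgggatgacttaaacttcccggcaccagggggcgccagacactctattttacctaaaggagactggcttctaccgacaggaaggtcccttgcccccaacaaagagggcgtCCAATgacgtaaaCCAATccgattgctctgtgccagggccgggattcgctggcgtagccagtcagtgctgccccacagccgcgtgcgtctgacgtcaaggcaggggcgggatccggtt
MCM7, chr7:100101398-100101647, minus strand: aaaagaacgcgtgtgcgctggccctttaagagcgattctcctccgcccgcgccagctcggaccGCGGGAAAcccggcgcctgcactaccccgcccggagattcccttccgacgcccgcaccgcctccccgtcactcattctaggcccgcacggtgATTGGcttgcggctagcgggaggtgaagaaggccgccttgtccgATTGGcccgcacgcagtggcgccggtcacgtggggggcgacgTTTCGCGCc
RFC3, chr13:33817899-33818148, plus strand: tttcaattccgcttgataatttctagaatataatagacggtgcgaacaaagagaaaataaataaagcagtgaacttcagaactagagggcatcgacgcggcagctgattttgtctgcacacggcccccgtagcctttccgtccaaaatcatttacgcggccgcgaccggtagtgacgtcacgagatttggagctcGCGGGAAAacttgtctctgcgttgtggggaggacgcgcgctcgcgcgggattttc
POLA2, chr11:65261712-65261961, plus strand: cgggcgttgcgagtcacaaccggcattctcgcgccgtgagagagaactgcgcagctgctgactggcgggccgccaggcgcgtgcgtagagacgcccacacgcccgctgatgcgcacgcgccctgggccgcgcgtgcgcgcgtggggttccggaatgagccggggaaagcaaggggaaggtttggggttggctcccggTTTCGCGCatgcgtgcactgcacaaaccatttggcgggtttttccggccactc
FEN1, chr11:61792661-61792910, plus strand: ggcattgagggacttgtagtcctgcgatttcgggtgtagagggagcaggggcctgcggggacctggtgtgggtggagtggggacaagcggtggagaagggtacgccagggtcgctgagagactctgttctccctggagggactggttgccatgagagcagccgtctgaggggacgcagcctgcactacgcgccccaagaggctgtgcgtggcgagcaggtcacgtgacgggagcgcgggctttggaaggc

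The CDC45 stretch held 4 CCAAT boxes and that of MCM10 held 2, and neither held an E2F motif of the 4 forms searched. Other forms were not counted, among them the letters tttggcggg, which stand in the CDC45 and POLA2 stretches. MCM7 held 2 of each, RFC3 and POLA2 held 1 E2F motif and no CCAAT box, and FEN1 held neither. Over the 43 of 49 genes with a RefSeq promoter entry, 13 (30.2%) held an E2F motif, against 2.79% of all 27305 promoters and 4.75% of 6906 promoters of genes with a mean of 8 or more. A CCAAT box was found in 24 of 43 (55.8%), against 33% of all promoters and 35.8% of those of the genes at 8 or more. The cell cycle homology motif TTTGAA, searched on both strands, was found only in RRM1 (2.33% of 43), against 13.6% of all promoters and 7.7% of those of the genes at 8 or more. No E2F match overlapped a CCAAT match in these 43 windows. Of the 13 genes with an E2F motif, 10 (76.9%) were higher in T164A than in vector cells, as were 27 of the 30 (90%) without one. CDC45 is counted among the 30, and whether these motifs go with the differences was not tested. The 3 carriers that were not higher were PCNA, which was lower, and LIG1 and TYMS, which were not called. These matches describe letters in the window and show no binding.

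In T164A cells the replication genes were higher across nearly every step of the process. Of the 49 genes, 42 were higher in T164A than in vector cells, 1 was lower (PCNA, the sliding clamp) and 6 were not called (RFC4, POLD3, POLE2, LIG1, TYMS and DUT). Among all 20166 genes, 37.1% were higher and 27.2% were lower in this comparison, 64.4% in either direction, and among 8842 genes with a mean of 8 or more, 46.2% were higher and 37.7% were lower. The median difference was 0.74 for the replication genes, against 0.11 for all genes and 0.09 for genes with a mean of 8 or more. Of the 49 genes, 15 were higher by 1 log2 or more, against 20.1% of all genes, and 41 had T164A and vector values that did not overlap, against 55.5% of all genes. The heatmap of all 16 libraries shows each gene, and the histogram of all genes shows where the 49 lie among them.

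**Figure D1:**
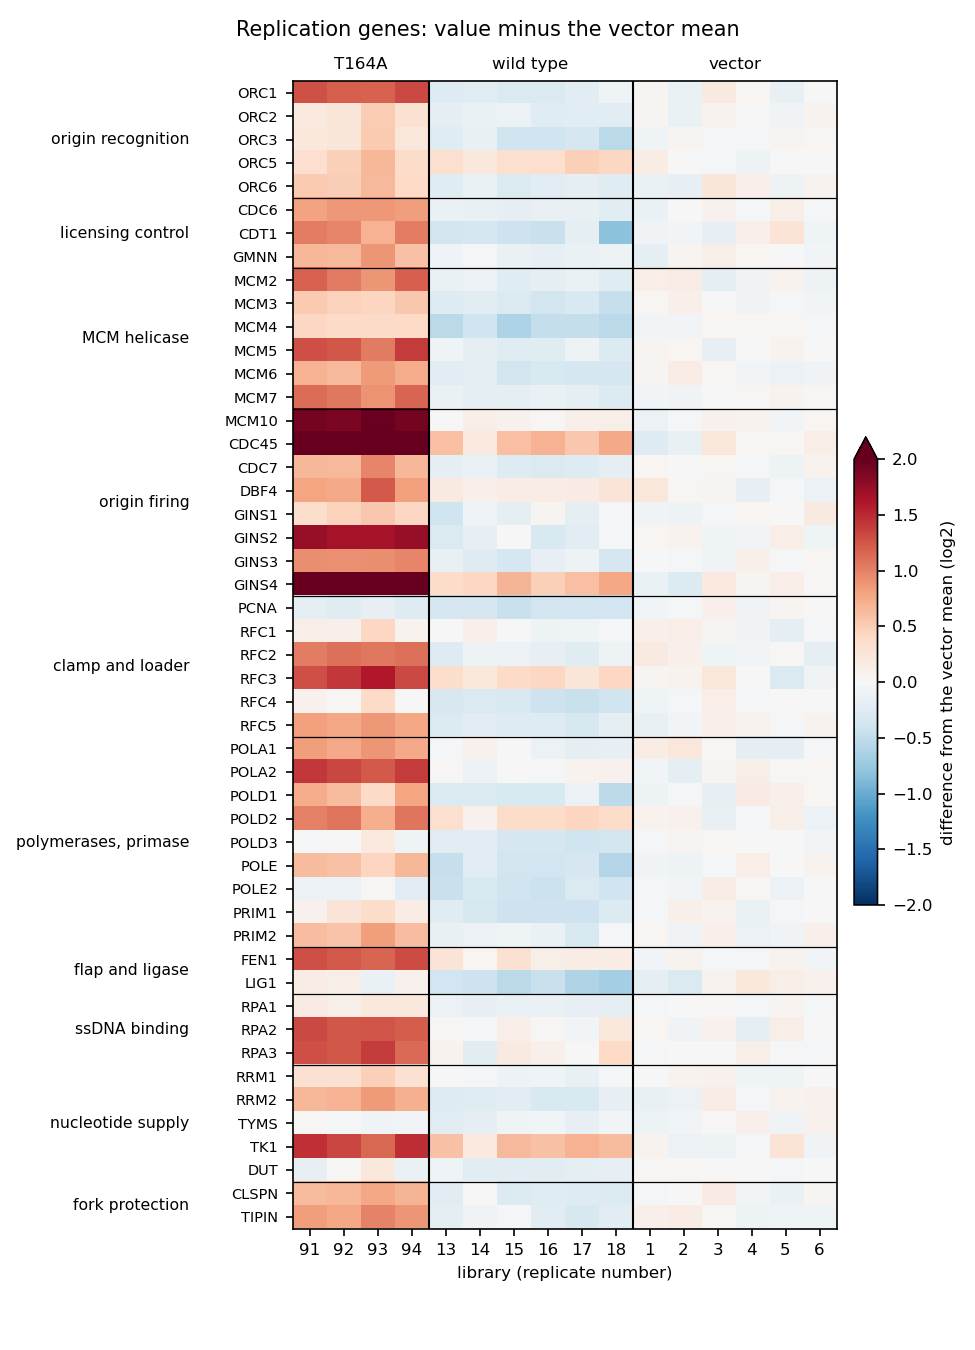
Deposited log2 value minus the vector mean for each of the 49 genes (rows, grouped by role) in each library (columns, by replicate number; 4 T164A, 6 wild-type and 6 vector libraries). Red marks higher and blue lower values, and the colour scale ends at 2, which CDC45 and GINS4 exceed in T164A libraries. The T164A columns are red for most rows, and the wild-type columns are mostly pale blue, with CDC45, GINS4, TK1, ORC5 and RFC3 among the rows in red.

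**Figure D2:**
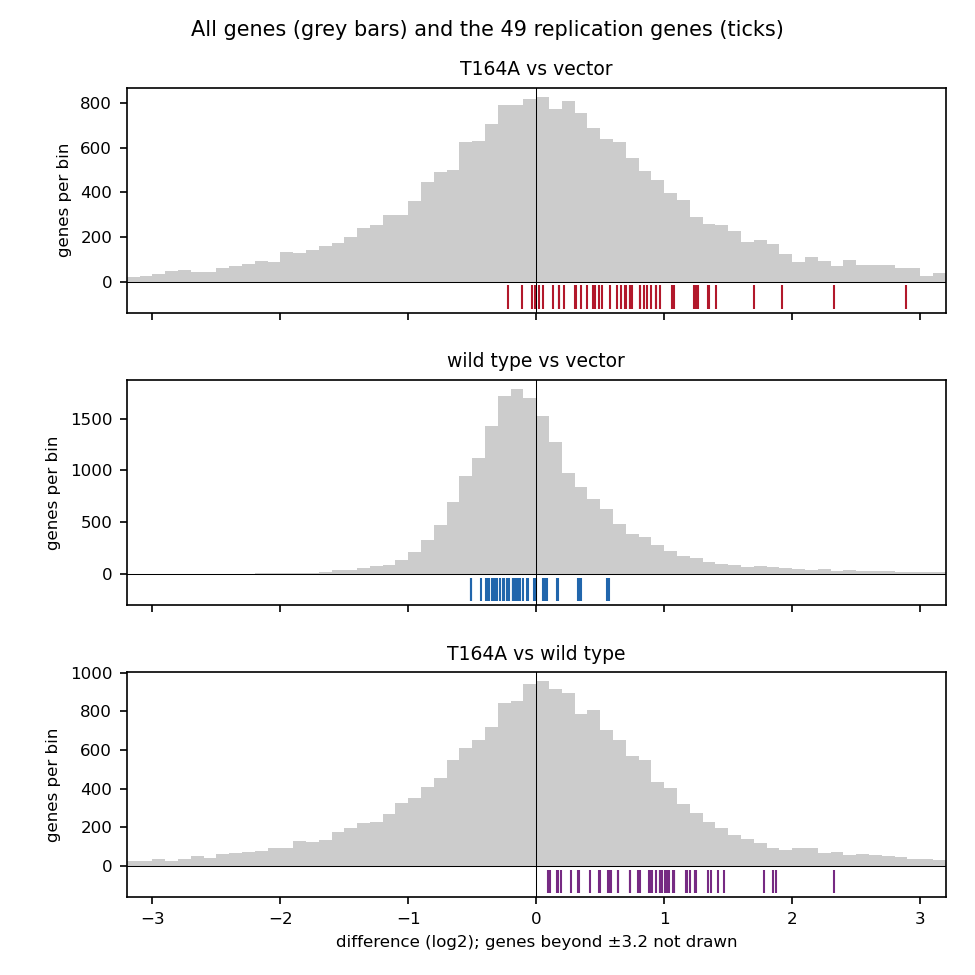
Number of genes per bin of 0.1 log2 (grey bars, all 20166 symbols; those beyond 3.2 in either direction are not drawn) and the 49 replication genes (coloured ticks) for each of 3 comparisons. The ticks run over -0.22 to 2.89 for T164A against vector, -0.51 to 0.57 for wild type against vector and 0.09 to 2.32 for T164A against wild type.

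The largest differences were among the factors that fire licensed origins, all 8 of which were higher in T164A than in vector cells, with a median of 1.32. CDC45, the helicase cofactor loaded at firing, stood at 11.04, 11.07, 10.82 and 11.01 in the T164A libraries, at 8.29 to 8.85 (median 8.70) in wild-type and at 7.84 to 8.32 (median 8.12) in vector libraries. Every T164A value lay above every other value, and the T164A minus vector difference was 2.89 ± 0.10 (SE; adjusted p = 7.96e-19), a 7.42-fold higher mean. GINS4, a subunit of the GINS complex of the active helicase, stood at 10.15, 10.10, 10 and 10.03 in T164A, 8.11 to 8.52 (median 8.27) in wild-type and 7.46 to 7.94 (median 7.78) in vector libraries. The 3 groups did not overlap, and T164A exceeded vector by 2.33 ± 0.09 (adjusted p = 2.64e-17), or 5.02-fold. MCM10, which helps to activate the helicase and to recruit polymerase alpha, stood at 10.74, 10.72, 10.80 and 10.75 in T164A, 8.83 to 8.94 (median 8.92) in wild-type and 8.72 to 8.92 (median 8.83) in vector libraries. T164A lay apart from both other groups, which overlapped, and exceeded vector by 1.92 ± 0.06 (adjusted p = 1.1e-19), or 3.79-fold.

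The 4 GINS subunits were higher by unequal amounts. GINS2 was higher by 1.70 ± 0.07 (adjusted p = 6.05e-17), with 10.52, 10.45, 10.44 and 10.53 in T164A against 8.69 to 8.91 (median 8.78) in vector libraries, and GINS3 was higher by 0.94 ± 0.07. GINS1 was higher by 0.45 ± 0.07, at 10.25 to 10.44 in T164A against 9.79 to 10.07 in vector libraries, so that the members of 1 complex differed by 0.45 to 2.33. No test set these subunits against each other. CDC7, the kinase that marks MCM rings, was higher by 0.74 ± 0.06 and its activator DBF4 by 0.90 ± 0.09, each with T164A and vector values that did not overlap.

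**Figure D3:**
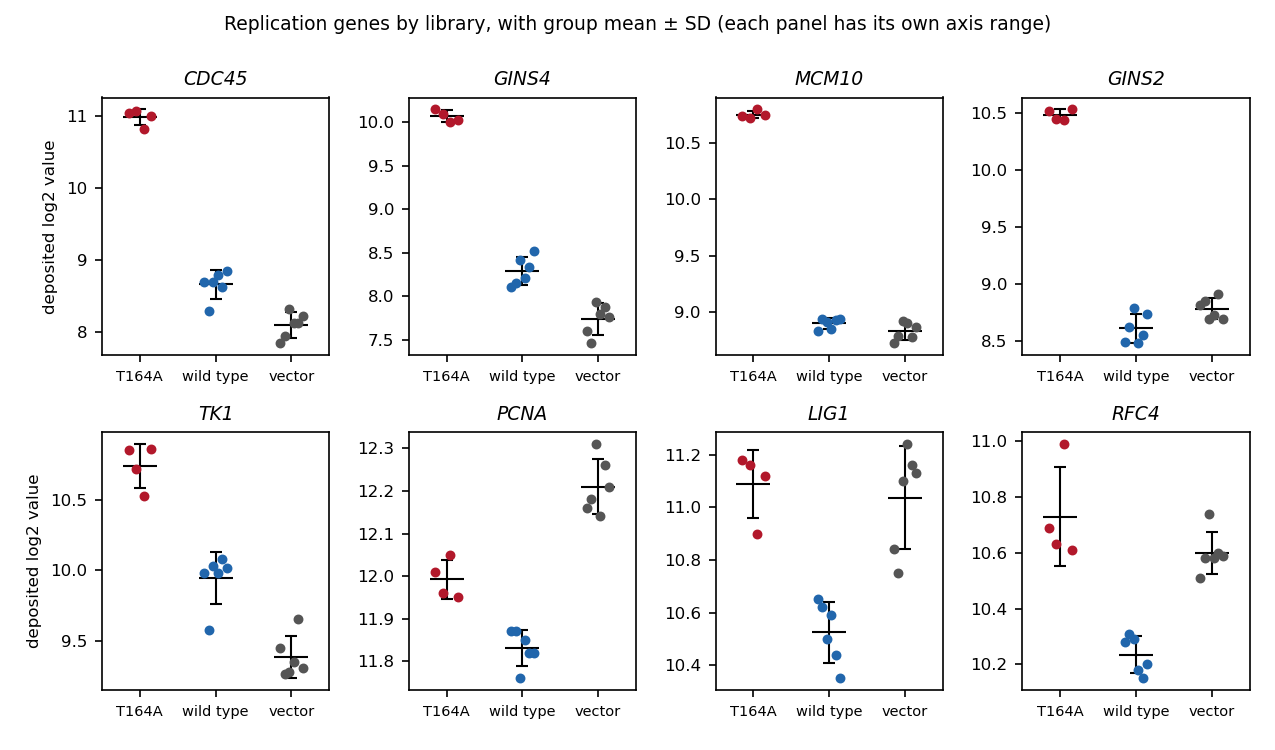
Deposited log2 value of 8 replication genes in each library (points; 4 T164A, 6 wild-type, 6 vector), with group mean ± SD; each panel has its own axis range. T164A points lie above all others for CDC45, GINS4, MCM10, GINS2 and TK1, between the other groups for PCNA, and within or around the vector points for LIG1 and RFC4.

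The 5 listed subunits of the origin recognition complex, which binds origins and starts licensing, were all higher in T164A than in vector cells, by 0.30 to 1.24. The remaining subunit, ORC4, is not on the list and was lower (-0.21 ± 0.07, adjusted p = 0.00913). That call was lost with close libraries averaged or against a minimum fold of 1.2. ORC1, an ATPase subunit, stood at 9.89, 9.81, 9.79 and 9.93 in T164A, 8.32 to 8.53 (median 8.37) in wild-type and 8.47 to 8.79 (median 8.64) in vector libraries. T164A lay above both other groups, which overlapped, and exceeded vector by 1.24 ± 0.07 (adjusted p = 4.33e-14). ORC6 exceeded vector by 0.51 ± 0.07 (adjusted p = 6.4e-07) and ORC5 by 0.46 ± 0.07 (adjusted p = 3e-06), and the core subunits ORC2 and ORC3 by 0.31 ± 0.06 and 0.30 ± 0.07. The T164A and vector values of these 5 genes did not overlap, but the calls of ORC2 and ORC3 were lost against a minimum fold of 1.2.

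The licensing proteins rose together with their inhibitor. CDT1, which brings the MCM ring to the origin, stood at 11.06, 11.01, 10.73 and 11.05 in T164A, 9.21 to 9.83 (median 9.64) in wild-type and 9.87 to 10.30 (median 9.97) in vector libraries. The 3 groups did not overlap, and T164A exceeded vector by 0.93 ± 0.10 (adjusted p = 2.66e-09). CDC6, the ATPase that joins the origin recognition complex, was at 10.94, 10.99, 11 and 10.97 in T164A, 9.91 to 9.99 (median 9.98) in wild-type and 10 to 10.24 (median 10.12) in vector libraries, a T164A minus vector difference of 0.84 ± 0.05 (adjusted p = 2.71e-13). GMNN, the geminin that inhibits CDT1, was at 10.24, 10.22, 10.45 and 10.15 in T164A against 9.39 to 9.69 (median 9.59) in vector libraries, a difference of 0.70 ± 0.07 (adjusted p = 5.1e-10). Neither CDC6 nor GMNN had T164A values within the vector range.

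The 6 subunits of the MCM ring were all higher in T164A than in vector cells, over a range of 0.39 to 1.24, and none of them overlapped between these groups. MCM5 stood at 12.00, 11.95, 11.74 and 12.10 in T164A, 10.44 to 10.63 (median 10.50) in wild-type and 10.54 to 10.78 (median 10.73) in vector libraries. T164A was the high group and exceeded vector by 1.24 ± 0.07 (adjusted p = 6.1e-15), and MCM7, at 13.29, 13.22, 13.07 and 13.33 in T164A against 12.10 to 12.23 (median 12.18) in vector libraries, by 1.06 ± 0.06 (adjusted p = 5.25e-15). MCM2 was at 12.97, 12.84, 12.68 and 12.99 in T164A against 11.62 to 11.94 (median 11.80) in vector libraries, a difference of 1.07 ± 0.07 (adjusted p = 3.66e-13). T164A replicate 93 was the lowest T164A library for these 3 subunits and the highest for MCM6, which was higher by 0.74 ± 0.06. MCM3 and MCM4 were higher by 0.49 ± 0.06 and 0.39 ± 0.05.

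The clamp and its loader, which places PCNA on primed DNA, were split. PCNA was the 1 gene of the 49 that was lower in T164A cells: it stood at 12.01, 11.96, 12.05 and 11.95 in T164A, 11.76 to 11.87 (median 11.83) in wild-type and 12.14 to 12.31 (median 12.20) in vector libraries. The T164A values lay between the other groups without overlap, at -0.22 ± 0.05 from vector (adjusted p = 0.000516), a call that was lost with close libraries averaged or against a minimum fold of 1.2. Of the loader subunits, RFC3 was at 10.36, 10.49, 10.67 and 10.40 in T164A against 8.78 to 9.30 (median 9.10) in vector libraries, a difference of 1.41 ± 0.08 (adjusted p = 4.15e-14). RFC2 was higher by 1.07 ± 0.07 (adjusted p = 1.25e-13) and RFC5 by 0.81 ± 0.06 (adjusted p = 1.49e-12). The large subunit RFC1 was higher by 0.17 ± 0.07 (adjusted p = 0.0315) with overlapping groups, and the call was lost under 12 of 27 alternatives, among them the fits without T164A replicate 93 and without vector replicate 4, 5 or 6. T164A replicate 93 held 11.50, against 11.16 to 11.20 in the other T164A libraries. RFC4 was not called, at 10.69, 10.63, 10.99 and 10.61 in T164A against 10.51 to 10.74 in vector libraries (difference 0.13 ± 0.07, adjusted p = 0.101).

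Of 9 polymerase and primase subunits, 7 were higher in T164A than in vector cells. POLA2, the accessory subunit of polymerase alpha, stood at 11.04, 10.96, 10.84 and 11.02 in T164A, 9.50 to 9.71 (median 9.62) in wild-type and 9.44 to 9.74 (median 9.65) in vector libraries. T164A alone was high, by 1.34 ± 0.06 over vector (adjusted p = 7.39e-16), and the catalytic subunit POLA1 was higher by 0.81 ± 0.08 (adjusted p = 4.59e-10). POLD2, an accessory subunit of polymerase delta, was at 11.73, 11.78, 11.44 and 11.78 in T164A against 10.57 to 10.84 (median 10.75) in vector libraries, a difference of 0.96 ± 0.08 (adjusted p = 1.31e-11). The catalytic subunits POLD1 and POLE were higher by 0.63 ± 0.08 and 0.58 ± 0.07, and the primase subunits PRIM2 and PRIM1 by 0.66 ± 0.07 and 0.21 ± 0.07. The accessory subunits POLD3 (difference 0.02 ± 0.06, adjusted p = 0.801) and POLE2 (-0.11 ± 0.07, adjusted p = 0.166) were not called, so that subunits of 1 enzyme fell on both sides of the threshold. POLE2 was called lower in T164A without T164A replicate 93.

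Okazaki fragment processing divided in the same way. FEN1, the flap nuclease, was at 10.26, 10.20, 10.14 and 10.29 in T164A, 9.02 to 9.29 (median 9.12) in wild-type and 8.93 to 9.05 (median 8.95) in vector libraries. It exceeded vector by 1.24 ± 0.06 without overlap (adjusted p = 2.49e-15). LIG1, the ligase that seals the nicks, was at 11.18, 11.16, 10.90 and 11.12 in T164A against 10.75 to 11.24 (median 11.11) in vector libraries, within 1 range (difference 0.06 ± 0.08, adjusted p = 0.606). Of the RPA subunits, RPA3 and RPA2 were higher by 1.27 ± 0.09 (adjusted p = 8.61e-13) and 1.26 ± 0.07 (adjusted p = 9.45e-15), while RPA1, the large DNA-binding subunit, was higher by 0.18 ± 0.05 (adjusted p = 0.00179). RPA1 was at 11.87, 11.82, 11.91 and 11.92 in T164A against 11.68 to 11.76 in vector libraries.

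Among nucleotide supply enzymes, TK1, the salvage kinase for thymidine, stood at 10.85, 10.72, 10.53 and 10.86 in T164A, 9.58 to 10.08 (median 10) in wild-type and 9.27 to 9.66 (median 9.33) in vector libraries. T164A lay above the other groups and exceeded vector by 1.35 ± 0.09 (adjusted p = 7.78e-13). The ribonucleotide reductase subunits RRM2 and RRM1 were higher by 0.73 ± 0.06 (adjusted p = 5.1e-11) and 0.35 ± 0.05 (adjusted p = 2.85e-06). TYMS, which makes thymidylate, and DUT, which removes dUTP, were not called, at -0.03 ± 0.06 (adjusted p = 0.641) and -0.01 ± 0.06 (adjusted p = 0.877). The fork protection genes were both higher: CLSPN, the claspin that relays the checkpoint signal, by 0.69 ± 0.07 (adjusted p = 1.27e-09), and TIPIN, the partner of TIMELESS, by 0.86 ± 0.07 (adjusted p = 8.42e-11).

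**Figure D4:**
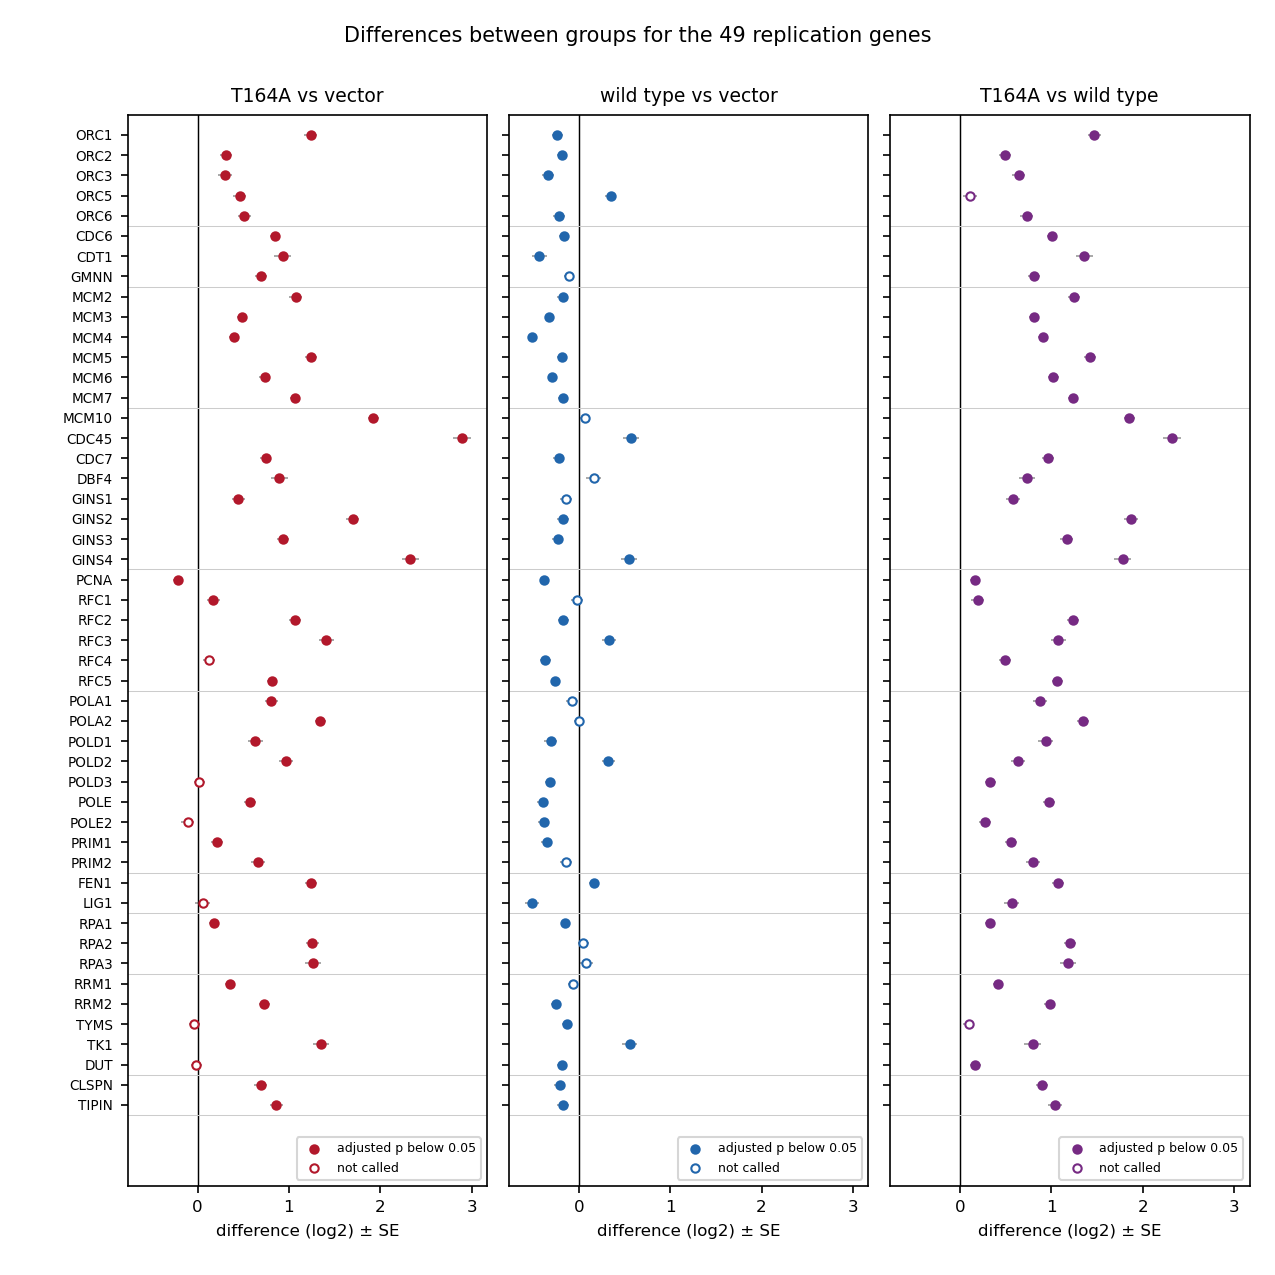
Difference between groups on the log2 scale ± SE for each of the 49 genes, in rows by role, for T164A against vector, wild type against vector and T164A against wild type; filled points have an adjusted p below 0.05. In T164A against vector, PCNA at -0.22 is the filled point left of 0; in wild type against vector most points lie between -0.51 and 0; in T164A against wild type every point lies right of 0.

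The size of these differences depended on scaling. Quantile normalization moved the median T164A minus vector difference of the 11167 genes whose mean was at least 6 by -0.174, and equal library medians moved it by -0.148. The T164A minus wild-type median moved by -0.143 and -0.129 under the same scalings. Under quantile normalization 39 of the 49 genes were higher and 2 lower in T164A than in vector cells, and with equal medians 38 were higher and 4 lower. POLE2 was called lower under both, and TYMS and DUT with equal medians. The call of ORC3, RFC1 and PRIM1 as higher was lost under both, and that of RPA1 under equal medians. Against a minimum fold of 1.2, the calls of ORC2, ORC3, RFC1, PRIM1, RPA1 and RRM1 as higher and of PCNA as lower were lost, and with close libraries averaged those of RFC1, PRIM1, RPA1 and PCNA. No gene of the 49 called in any of the 3 comparisons changed sign under any of the 27 alternatives. Over all genes, quantile normalization gave 6201 higher and 6940 lower, against 7487 higher and 5490 lower without it.

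Cells with the wild-type construct showed small differences from vector cells, mostly downward. Of the 49 genes, 31 were lower and 7 higher in wild-type than in vector cells, and 11 were not called (GMNN, MCM10, DBF4, GINS1, RFC1, POLA1, POLA2, PRIM2, RPA2, RPA3 and RRM1). Among all genes 24.5% were lower and 21% higher, 45.5% in either direction, and among genes with a mean of 8 or more 40.5% were lower and 26% higher. The median difference was -0.17 for the replication genes, against -0.05 for all genes and -0.08 for genes with a mean of 8 or more, and none of the 49 was higher or lower by 1 log2 or more, against 7.64% of all genes higher and 1.25% lower by that much. In 22 of the 49 the wild-type and vector values did not overlap, against 29.4% of all genes. Most of these calls were lost under either of 2 alternatives: against a minimum fold of 1.2, 3 were lower (MCM4, PCNA and LIG1) and 3 higher (CDC45, GINS4 and TK1), and with close libraries averaged 5 were lower (CDT1, MCM4, PCNA, PRIM1 and LIG1) and 2 higher (CDC45 and GINS4).

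All 6 MCM subunits were lower in wild-type than in vector cells, of which MCM4 was called under every one of 27 alternatives. Quantile normalization ended the call of MCM2, MCM5 and MCM7, and of FEN1, RPA1, TYMS and DUT among the other genes, and MCM2 lost its call under 9 of 27 alternatives, among them the fits without wild-type replicate 15 or 18 and without vector replicate 1, 2 or 5. MCM4 was at 12.11 to 12.33 (median 12.21) in wild-type against 12.67 to 12.77 (median 12.73) in vector libraries, without overlap, and fell by 0.51 on the log2 scale (SE 0.05; adjusted p = 2.12e-09). MCM3 was at 11.77 to 12.00 (median 11.93) in wild-type against 12.17 to 12.33 (median 12.22) in vector libraries, a fall of -0.32 ± 0.05 (adjusted p = 5.52e-06). The other MCM subunits differed from vector by -0.29 to -0.17. CDT1 was at 9.21 to 9.83 in wild-type against 9.87 to 10.30 in vector libraries, at -0.43 ± 0.09 (adjusted p = 0.000168), and CDC6 at -0.17 ± 0.05 (adjusted p = 0.00624).

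LIG1 was at 10.35 to 10.65 (median 10.54) in wild-type against 10.75 to 11.24 (median 11.11) in vector libraries, a difference of -0.51 ± 0.08 (adjusted p = 3.83e-06). PCNA was at 11.76 to 11.87 in wild-type against 12.14 to 12.31 in vector libraries, at -0.38 ± 0.05 (adjusted p = 1.71e-07), and the loader subunit RFC4 at -0.37 ± 0.06 (adjusted p = 1.61e-05). All 3 were without overlap between these groups. The polymerase epsilon subunits POLE and POLE2 differed by -0.39 ± 0.06 (adjusted p = 4.43e-06) and -0.38 ± 0.06 (adjusted p = 8.49e-06), and ORC3 by -0.34 ± 0.07 (adjusted p = 0.000152). RPA1, RRM2, CLSPN and TIPIN were lower by smaller amounts, at -0.15, -0.25, -0.21 and -0.17. The groups overlapped for CLSPN and TIPIN, and TIPIN lost its call under 9 of 27 alternatives.

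The 7 genes that went the other way were ORC5, CDC45, GINS4, RFC3, POLD2, FEN1 and TK1. CDC45 was at 8.29 to 8.85 (median 8.70) in wild-type against 7.84 to 8.32 (median 8.12) in vector libraries and was higher by 0.57 ± 0.09 (adjusted p = 5.88e-06). Its groups overlapped through wild-type replicate 14 at 8.29, which also held the lowest wild-type TK1 (9.58) and POLD2 (10.81). TK1 was higher by 0.56 ± 0.08 (adjusted p = 3.06e-06) and GINS4, with no overlap, by 0.55 ± 0.08 (adjusted p = 5.62e-06). ORC5 was at 9.09 to 9.36 in wild-type against 8.77 to 9.02 in vector libraries, higher by 0.35 ± 0.06 (adjusted p = 6.61e-05). RFC3 was higher by 0.33 ± 0.07 (adjusted p = 0.000514), POLD2 by 0.33 ± 0.07 (adjusted p = 0.000245) and FEN1 by 0.17 ± 0.06 (adjusted p = 0.0154), each with overlapping groups.

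Set directly against each other, the 2 construct groups differed at 47 of the 49 genes, all higher in T164A than in wild-type cells. ORC5 (0.11 ± 0.07, adjusted p = 0.192) and TYMS (0.09 ± 0.06, adjusted p = 0.152) were not called. Among all genes 35.1% were higher and 26.7% lower in T164A, 61.8% in either direction. Among genes with a mean of 8 or more, 46.5% were higher and 33.7% lower. The median difference was 0.90 for the replication genes, against 0.08 for all genes and 0.11 for genes with a mean of 8 or more. Of the 49, 20 were higher by 1 log2 or more, against 15.9% of all genes, and 45 did not overlap, against 52.4% of all genes. Under quantile normalization, or with equal medians, 43 were higher and none lower, and PCNA, RFC1, POLE2 and DUT lost their call under each.

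CDC45 exceeded wild type by 2.32 ± 0.10 (adjusted p = 8.62e-17), GINS2 by 1.87 ± 0.07 (adjusted p = 1.38e-17) and MCM10 by 1.85 ± 0.06 (adjusted p = 3.14e-19). GINS4 was higher by 1.78 ± 0.09, ORC1 by 1.47 ± 0.07 and MCM5 by 1.42 ± 0.07. CDT1, with 10.73 to 11.06 in T164A against 9.21 to 9.83 in wild-type libraries, was higher by 1.36 ± 0.10 (adjusted p = 2.47e-12). Genes that were not called between T164A and vector cells were called here: LIG1 by 0.57 ± 0.08 (adjusted p = 1.82e-06), RFC4 by 0.49 ± 0.07 (adjusted p = 4.22e-07), POLD3 by 0.33 ± 0.06 (adjusted p = 3.2e-05) and POLE2 by 0.27 ± 0.07 (adjusted p = 0.000918), all without overlap. PCNA was higher by 0.16 ± 0.05 (adjusted p = 0.00804), with 11.95 to 12.05 in T164A against 11.76 to 11.87 in wild-type libraries. DUT was higher by 0.17 ± 0.06 (adjusted p = 0.0215) with overlapping groups.

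The replication genes varied little between libraries of a group when averaged, and more when taken singly. The mean deviation of the 49 genes from their vector means was 0.77 to 0.82 in the 4 T164A, -0.13 to -0.11 in the 6 wild-type and -0.02 to 0.04 in the 6 vector libraries. For the origin firing factors it was 1.46 to 1.54 in T164A and 0.02 to 0.16 in wild-type libraries, and for the MCM ring 0.75 to 0.90 in T164A and -0.35 to -0.21 in wild-type libraries. T164A replicate 93 held the highest T164A value for 27 of the 49 genes and the lowest for 18. It was lowest for MCM2, MCM5, MCM7, CDC45, CDT1, POLD1, POLD2, POLE, LIG1 and TK1 and highest for ORC2, ORC3, ORC5, CDC7, DBF4 and RFC1, so the class means moved in both directions with it. Wild-type replicate 14 was highest for 17 and lowest for 10 genes.

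**Figure D5:**
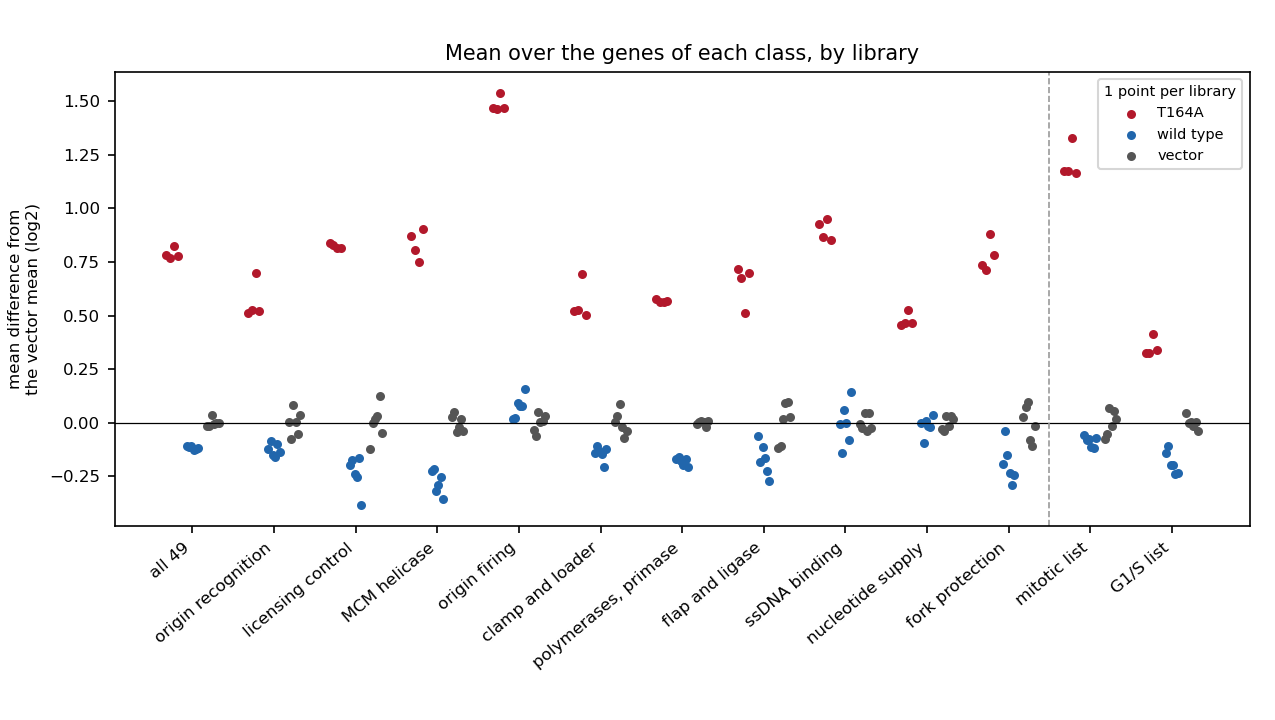
Mean over the genes of each role class of the deposited log2 value minus the vector mean, 1 point per library, for T164A, wild-type and vector libraries; right of the dashed line are a list of mitotic genes and a list of G1/S regulators. T164A libraries lie above 0.45 in every role class, with origin firing at 1.46 to 1.54, and wild-type libraries lie at or below 0.16.

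Single genes also followed the library sets within a group. Among wild-type libraries, the extremes of CDC45 were those of the luminal marker sum: replicate 14, with the lowest sum (53246), held 8.29, and replicate 18, with the highest (110636), held 8.85. The same 2 libraries held the lowest and highest RPA3 (8.46 and 9.07), while the lowest CDT1 (9.21) and LIG1 (10.35) of the group were in replicate 18. Among vector libraries, LIG1 was at 10.84 and 10.75 in replicates 1 and 2 against 11.10 to 11.24 in the others, and CDC45 was at 7.84 and 7.94 against 8.12 to 8.32. MCM2 was at 11.93, 11.94 and 11.87 in vector replicates 1, 2 and 5 against 11.62, 11.73 and 11.69 in replicates 3, 4 and 6. The part of these library sets in the differences between groups was not tested.

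Other genes that act beside the 49 were taken from further lists, and no called gene of these lists changed sign under the other scalings. Of 25 measured genes that support replication outside the 49, 15 (60%) were higher and 5 (20%) lower in T164A than in vector cells, with a median of 0.37, against 46.2% and 37.7% of genes with a mean of 8 or more. DBF4B, a second activator of CDC7, averaged 10.36 in T164A and 8.80 in vector libraries, higher by 1.57 ± 0.08 (adjusted p = 2.28e-15), and RNASEH2A, the catalytic subunit of the RNase that removes ribonucleotides from DNA, was higher by 1.23 ± 0.07 (adjusted p = 1.37e-14). LRWD1, which binds the origin recognition complex, was higher by 1.23 ± 0.10 (adjusted p = 3.3e-11), and UNG, which removes uracil, by 1.01 ± 0.06 (adjusted p = 3.79e-14). ORC4, the remaining subunit of the origin recognition complex, went against the 5 others and averaged 9.62 in T164A and 9.83 in vector libraries (-0.21 ± 0.07, adjusted p = 0.00913), a call lost with close libraries averaged or against a minimum fold of 1.2. POLD4, a small subunit of polymerase delta, was also lower (-0.77 ± 0.12, adjusted p = 3.27e-06). In wild-type against vector cells 14 of the 25 (56%) were lower and 2 (8%) higher, against 40.5% and 26% of genes with a mean of 8 or more, with DONSON (-0.59), MCM8 (-0.55), POLE3 (-0.35) and MCMBP (-0.34) having the smallest p-values. Against a minimum fold of 1.2, 2 of the 25 were lower and none higher in wild-type cells, and with close libraries averaged 3 were lower and none higher. In T164A against wild-type cells 18 (72%) were higher and 2 (8%) lower, against 46.5% and 33.7% of genes with a mean of 8 or more.

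All 20 mitotic genes listed were higher in T164A than in vector cells, with a median of 1.07, compared with 0.74 for the replication genes. Of genes with a mean of 8 or more, 46.2% were higher in that comparison. BIRC5, the survivin of the chromosomal passenger complex, averaged 11.33 in T164A and 8.49 in vector libraries, a difference of 2.84 ± 0.08 (adjusted p = 3.2e-20), CDC20, an activator of the anaphase-promoting complex, was higher by 1.99 ± 0.07 (adjusted p = 2.34e-18), and the kinases BUB1 and PLK1 by 1.88 ± 0.06 and 1.86 ± 0.06. MKI67, the Ki-67 proliferation antigen, was higher by 0.22 ± 0.07 (adjusted p = 0.00699), a call lost with equal medians, with close libraries averaged and against a minimum fold of 1.2. In wild-type against vector cells 11 of the 20 (55%) were lower and 4 (20%) higher, where 40.5% and 26% of genes with a mean of 8 or more were, but 1 lower and 1 higher with close libraries averaged or against a minimum fold of 1.2, and in T164A against wild-type cells 19 (95%) were higher, against 46.5% of the genes whose mean was 8 or more.

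The regulators of the G1/S step, upstream of many replication genes, were mixed. Of 21, 10 (47.6%) were higher and 6 (28.6%) lower in T164A than in vector cells, with a median of 0.18, near the 46.2% higher and 37.7% lower among genes with a mean of 8 or more. CDC25A, the phosphatase that activates CDK2, averaged 11.03 in T164A and 7.87 in vector libraries, higher by 3.16 ± 0.08 (adjusted p = 6.97e-21), cyclin gene CCNA2 was higher by 1.48 ± 0.06 (adjusted p = 5.81e-17) and CDK4 by 1.38 ± 0.09 (adjusted p = 1.26e-13). E2F1, an activating E2F factor, was lower, at 10.50 in T164A and 11.71 in vector libraries (-1.21 ± 0.07, adjusted p = 1.64e-14), as were its partner TFDP1 (-0.54 ± 0.06) and the pocket protein genes RB1 (-0.70 ± 0.08) and RBL1 (-0.69 ± 0.08). E2F2 and E2F3 were higher, by 0.91 ± 0.09 and 0.54 ± 0.06. CCNE1, which encodes cyclin E1, was at 8.38 in T164A and 8.39 in vector libraries (-0.01 ± 0.08, adjusted p = 0.965). In wild-type against vector cells 13 of 21 (61.9%) were lower, where 40.5% of genes with a mean of 8 or more were, among them TFDP1, CDK2 and E2F1 (-0.45, -0.45 and -0.47), and 3 were higher, led by CCND1 (0.89 ± 0.06, adjusted p = 2.19e-12). With close libraries averaged 5 were lower and 1 higher, and against a minimum fold of 1.2, 6 were lower and 1 higher. In T164A against wild-type cells 15 (71.4%) were higher and 4 (19%) lower, against 46.5% and 33.7% of genes with a mean of 8 or more (10 and 5 genes under quantile normalization), and E2F1 was again among the lower (-0.74 ± 0.07, adjusted p = 3.46e-10).

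Some of these values are uncertain because the sources do not say how reads from overlapping genes, opposite strands or near-identical copies were counted. In the GENCODE annotation, 6 of the 49 genes share more than 20% of their exonic bases with another gene: TYMS shares 46.6%, POLA2 35.1%, MCM2 and GINS4 23.6%, PRIM1 21.6% and RRM2 20.2%. Named pseudogenes are annotated for 10 of the 49, of which DUT has 8 and PCNA, RPA2 and RRM2 have 3 each.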

How the data were processed

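Poly-A RNA was made into TruSeq libraries and sequenced on an Illumina HiSeq, per the labels' protocols. GRCh37 and the tools TopHat2 2.0.4, CASAVA 1.8.2, DESeq and Cufflinks 2.0.2 are listed, without roles, in the submitters' processing notes. The table deposited by the authors holds log2 values in 21594 rows, 1 column for each library. How they were transformed is not stated in these sources. Above 11.5, 100% of values lie within 0.05 of steps of whole reads, but between 10 and 10.5 only 8.29% to 11.4% do, so reads were not recovered and a count test was not used. These steps gave the depth estimate and the level of 3 reads, which cover counting error only. For 304 symbols on several rows (1732 rows), the row with the highest mean was kept.

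Libraries were grouped by their titles. No pair of libraries agreed within sampling noise, so each was counted as 1 replicate. All 16 libraries entered 1 model in limma 3.58.1 (R 4.3.3), with empirical Bayes moderation, a trend of variance on level and 13 residual degrees of freedom. The model gave 3 two-sided differences between groups and Benjamini-Hochberg adjustment over 20166 symbols. No filter on low values was applied, and all 49 genes were tested. The fit was tested on simulated data with 200 changed genes. The noise there was drawn independently for each library, so close sets of libraries were not imitated. That test therefore does not show how the p-values behave with such sets. Alternatives were other scalings, filters, weights, a minimum fold of 1.2, averaging of close libraries and leaving out each library. Marker sums add 2 raised to each value.

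The members and lists were chosen with earlier results of these data known, so counts over them carry no test. Statistics are given for the 3 genes of each role with the smallest adjusted p in T164A against vector, the 2 with the smallest in wild type against vector, every called gene that moves against the majority, and up to 4 genes per other list; GINS1, GINS3, CDC7, DBF4 and further genes whose values are printed were added after their values were seen. Promoters were matched by symbol to RefSeq (GRCh38.p14), another build than that of the table. In 38 of 43, a run of 25 bases shortly after the start was found, at any position, in the gene's annotated transcripts. The position of the start itself was not checked. No promoter was printed for genes on chromosome 8. Values of the over-expressed gene and of some listed genes are not reported here.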

Additional observations from a re-analysis of the deposited data

Results flagged for a closer look

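In 13 of 147 sets of values (a gene in a group), 1 library lay far from the others of its group by Dixon's criterion, which chance meets in about 1 in 20 sets. T164A replicate 93 accounted for 7 of the 13. It was high for ORC3 (9.97, against 9.67 to 9.69 in the other T164A libraries), CDC7 (11.31, against 10.98 to 11), DBF4 (9.42, against 8.95 to 9), RFC1 (11.50, against 11.16 to 11.20), PRIM2 (9.42, against 9.16 to 9.21) and RRM1 (12.18, against 12.00 to 12.01), and low for POLD2 (11.44, against 11.73 to 11.78). Without it, the call of RFC1 as higher than vector was lost, and the other 6 genes remained called higher.

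Wild-type replicate 14 accounted for 3, being low for POLD2 (10.81, against 11.04 to 11.15 in the other wild-type libraries) and TK1 (9.58, against 9.98 to 10.08) and high for CLSPN (9.23, against 8.96 to 9.03). The others were ORC1 in wild-type replicate 18 (8.53, against 8.32 to 8.39), DUT in wild-type replicate 13 (10.41, against 10.28 to 10.33) and MCM5 in vector replicate 3 (10.54, against 10.71 to 10.78).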

How the results depend on the processing

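Across 27 alternatives, 16 of which leave out 1 library, no called difference of the 49 genes changed sign. Counts of called genes stayed within 1.5 times of those reported except as follows. The count of replication genes lower in T164A than in vector cells, 1 in the report, was 2 under quantile normalization, 4 with equal medians, 2 with array weights, 0 against a minimum fold of 1.2, 0 with close libraries averaged and 2 without T164A replicate 93 and wild-type replicate 14. Leaving out 1 library at a time gave 1 to 2, the 2 arising without T164A replicate 93. For wild type against vector, a minimum fold of 1.2 gave 2513 genes higher and 1578 lower, with 3 and 3 of the 49, and close libraries averaged gave 2274 and 1547, with 2 and 5 of the 49. These fits set a larger minimum difference or use fewer samples. With 1 library left out, 41 to 43 genes were higher in T164A than in vector cells, 6 to 8 higher and 27 to 31 lower in wild type than in vector, and 45 to 47 higher in T164A than in wild type.

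Uncalled differences near 0 changed sign, and the cause was not tested. Under quantile normalization these were POLD3 (-0.10) for T164A against vector, MCM10 (-0.0086), RFC1 (0.0483), POLA2 (-0.0029), RPA3 (-0.0064) and RRM1 (0.0044) for wild type against vector, and ORC5 (-0.0404) and TYMS (-0.0154) for T164A against wild type. With equal medians they were RFC4 (-0.0190), POLD3 (-0.13) and LIG1 (-0.0926) for T164A against vector, POLA2 (-0.0183) for wild type against vector, and ORC5 (-0.0173) and TYMS (-0.0337) for T164A against wild type. With array weights they were POLD3 (-0.0257) and, for wild type against vector, POLA2 (-0.0090). With close libraries averaged they were LIG1 (-0.0081) and DUT (0.0698) for T164A against vector, and RFC1 (0.0577), POLA1 (0.0144), POLA2 (-0.0408), RPA2 (-0.0121) and RPA3 (-0.0201) for wild type against vector. Without T164A replicate 93 and wild-type replicate 14, POLD3 was at -0.0403. Leaving out single libraries gave, for T164A against vector, -0.0890 to 0.0362 for DUT, -0.0022 to 0.12 for LIG1 and -0.0403 to 0.0555 for POLD3, and for wild type against vector -0.0343 to 0.0256 for POLA2 and -0.0546 to 0.00679 for RFC1.

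No paired analysis was possible because the groups share no replicate numbers. No batch is named in the labels, and any that coincides with the groups cannot be told apart from them.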

Other observations

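Enzymes of nucleotide metabolism outside the 49 genes gave a mixed picture. Of 11 measured, 6 (54.5%) were higher and 3 (27.3%) lower in T164A than in vector cells, near the 46.2% higher and 37.7% lower among genes with a mean of 8 or more, 5 were higher and 2 lower in wild-type than in vector cells (26% and 40.5% of those genes), and 5 were higher and 4 lower in T164A than in wild-type cells (46.5% and 33.7% of those genes). The 5 higher and 2 lower in wild-type cells became 3 and 0 with close libraries averaged or against a minimum fold of 1.2. NME1, a nucleoside diphosphate kinase, averaged 9.92 in T164A and 7.96 in vector libraries (difference 1.95 ± 0.08, adjusted p = 3.31e-17). DTYMK, the thymidylate kinase, was higher by 0.79 ± 0.06 and CAD, of pyrimidine synthesis, by 0.59 ± 0.07. In wild-type cells the mitochondrial thymidine kinase gene TK2 was higher than in vector cells by 1.02 ± 0.08 (adjusted p = 9.3e-11) and RRM2B, the p53-inducible reductase subunit, by 0.53 ± 0.06 (adjusted p = 1.62e-07). RRM2B was lower in T164A than in vector cells (-0.21 ± 0.07, adjusted p = 0.0115, a call lost with close libraries averaged or against a minimum fold of 1.2) and lower in T164A than in wild-type cells (-0.74 ± 0.07, adjusted p = 9.77e-10), while RRM2 went the other way in each of these comparisons (0.73 ± 0.06 and 0.98 ± 0.06).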
